A study of Rattus norvegicus with 12 samples.

Results

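The cytosolic ribosomal protein genes code for the structural proteins of the ribosome outside mitochondria. They were selected on their symbol and their summed count, as the rows of the deposited count table whose symbol is that of a large subunit protein (Rpl or Rplp) or a small subunit protein (Rps or Rpsa), without S6 kinase genes or pseudogene symbols, and with at least 200 counts summed over the 12 libraries. The rule selected 80 of 31177 rows, 51 for the large and 29 for the small subunit, under 73 distinct symbols. Of 83 rows with a matching symbol, the 3 just below the limit were Rpl37 with 107 counts, Rpl3l with 138 and Rpl39l with 142, and the 3 just above it were Rps29 with 240, Rpl35a with 558 and a row of Rpl21 with 631. All 80 rows passed the filter on low counts and were among the 18850 genes tested.

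Brain tissue RNA was sequenced in 3 groups of 4 libraries: Sham controls, an Alzheimer's disease model (AD) and that model on a high-fat diet (AD-HFD). The organism field and the identifiers of the genes name rat, although the series text speaks of mouse brain, and the samples are treated as rat here. The labels name no strain, age, sex, brain region, way of inducing AD or length of the diet, and nothing in them ties each library to its own animal. The p-values therefore reflect the spread between these libraries, which may be technical. No diet group without AD was analysed here.

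A ribosome is built from large ribosomal RNAs and one copy of most ribosomal proteins, so the proteins are needed in near-equal amounts. In mammals most of their mRNAs begin with a 5′ terminal oligopyrimidine (TOP) stretch, a C at the cap followed by pyrimidines, through which the mTOR pathway adjusts their translation, while Myc raises their transcription. In the brain, part of protein synthesis takes place at synapses and in glia, and microglia and blood cells carry their own ribosomal protein transcripts.

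Library totals ran from 26668974 to 35351792 counts. Libraries within a group differed in the tissue their markers point to. Sham-2 and Sham-3 held 4695 and 4576 CPM (counts scaled to the size of the library) summed over 8 choroid plexus markers, AD-HFD-1 and AD-HFD-2 held 10529 and 557 CPM, and the other 8 libraries at most 31.4 CPM. AD-1, AD-2 and AD-4 held 1900, 636 and 1347 CPM summed over 8 thalamus markers, whereas the other libraries stayed at or below 137 CPM. Markers of the cerebral cortex summed to 2308 to 2777 CPM in Sham, 69.6 to 1247 CPM in AD and 475 to 1919 CPM in AD-HFD. In bulk tissue, fewer cells of a type and less RNA per cell cannot be told apart.

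Ribosomal protein transcripts made up a larger part of the RNA in AD-HFD than in Sham, with a wide spread among the AD-HFD libraries. Summed over the 80 rows, their share of library counts was 0.914%, 1.04%, 1.09% and 1.01% in Sham-1 to Sham-4. It was 0.957%, 1.04%, 1.5% and 1.30% in AD-1 to AD-4. In AD-HFD-1 to AD-HFD-4 it was 1.94%, 1.89%, 1.17% and 2.53%. All 4 AD-HFD libraries lay above all 4 Sham libraries, AD-HFD-3 by the least, and AD-1 and AD-2 lay within the Sham range. The group means were 1.01% ± 0.073, 1.20% ± 0.247 and 1.88% ± 0.558 (SD, n = 4 each), given as a description with no test because the members were chosen with results known.

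The shift was shared by most rows within a library. Relative to each row's Sham mean, the median log2 level over the 80 rows was -0.12, -0.04, 0.13 and 0.00 in the Sham libraries, -0.07, -0.04, 0.53 and 0.27 in the AD libraries, and 0.71, 0.69, 0.12 and 1.24 in the AD-HFD libraries. AD-HFD-4 was the highest of all 12 libraries for 70 of the 80 rows. Within AD-HFD, AD-HFD-3 was the lowest for 73 rows, and within AD, AD-3 was the highest for 72. The number of rows above every Sham library was 8, 15, 66 and 58 in AD-1 to AD-4, and 70, 69, 30 and 75 in AD-HFD-1 to AD-HFD-4.

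**Figure D1:**
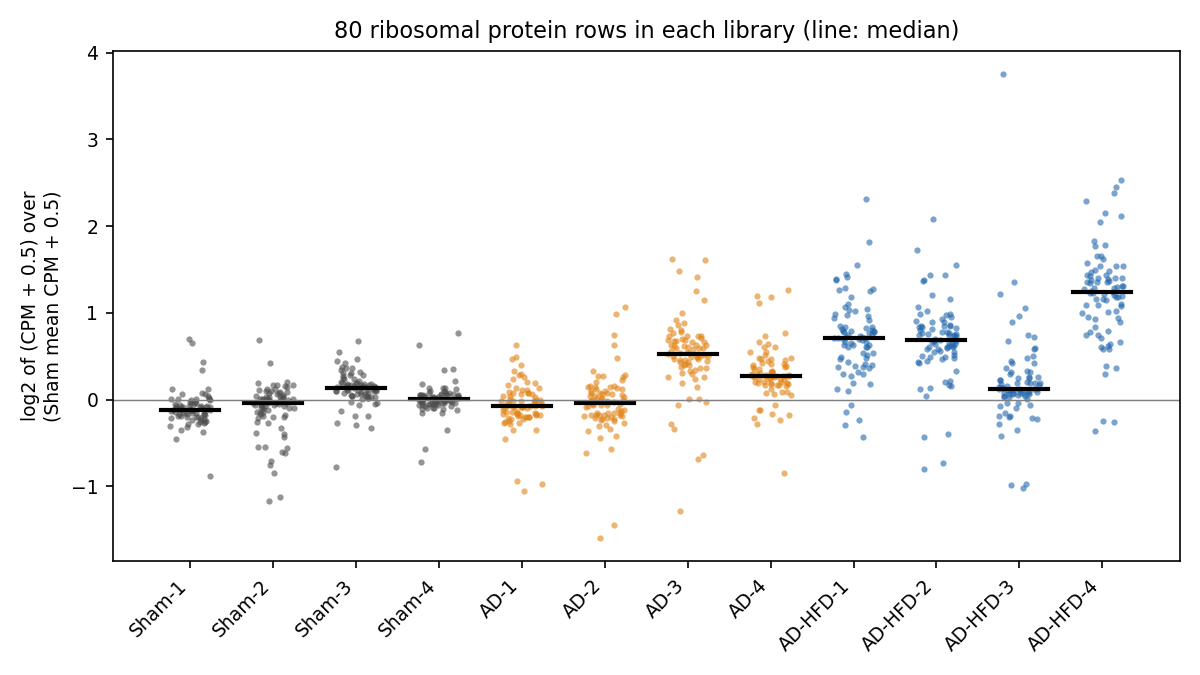
Each point is 1 of the 80 ribosomal protein rows in 1 library, as the log2 ratio of its CPM to its Sham mean CPM (0.5 added to both), and the black line is the median of the library. AD-HFD-4 has the highest median, at 1.24, while AD-1 and AD-2 sit below 0 and AD-HFD-3 at 0.12.

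Within AD-HFD, markers of several cell types differed between libraries in an order like that of this share, and others did not. Microglia markers also had the order of the share within AD, and oligodendrocyte markers had it within Sham. For the other lists the orders within AD and within Sham were less alike. Summed over 9 microglia markers, Sham libraries held 260 to 291 CPM. AD-1 to AD-4 held 332, 335, 483 and 435 CPM, and AD-HFD-1 to AD-HFD-4 588, 548, 428 and 684 CPM. In AD against Sham, 3 of the 9 microglia markers rose at an adjusted p under 0.05 (edgeR), against 3.07% of all genes. In AD-HFD against Sham, 6 rose and 1 fell, against 19.7% and 12.9% of all genes. The marker counts below are of AD-HFD against Sham unless stated, and are read beside these shares. Red blood cell markers (5 of 6 listed genes found) summed to 159 to 361 CPM in Sham, 271 to 611 CPM in AD, and 1138, 798, 253 and 4207 CPM in AD-HFD-1 to AD-HFD-4, and all 5 rose. Peripheral leukocyte markers summed to 6.60 to 10.3 CPM in Sham and 36.9 to 309 CPM in AD-HFD, and 5 of 6 tested rose. In AD-1 to AD-4 they were at 35.4, 34.5, 64.2 and 38.1 CPM, all above Sham. In AD against Sham, 4 of the 6 rose.

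Leptomeningeal fibroblast markers ran from 65.2 to 506 CPM in Sham and from 133 to 735 CPM in AD-HFD, and 5 of 7 rose. They did not follow the share within AD, at 55.4, 116, 79.2 and 42.9 CPM in AD-1 to AD-4. Endothelial markers ran from 105 to 149 CPM in Sham and from 137 to 906 CPM in AD-HFD, and 2 of 3 tested rose. In AD-1 to AD-4 they were at 164, 170, 174 and 124 CPM. Neuron markers moved the other way: the 6 genes summed to 6686 to 8612 CPM in Sham, 4353 to 5400 CPM in AD, and 1985, 2490, 5396 and 1306 CPM in AD-HFD-1 to AD-HFD-4, and 5 of the 6 fell. Oligodendrocyte markers did not follow the share within AD, with sums of 36086 and 44725 CPM in AD-1 and AD-2 and 11502 CPM in AD-3. In Sham-1 to Sham-4 they were at 8122, 15843, 19682 and 9592 CPM, and in AD-HFD-1 to AD-HFD-4 at 30515, 28447, 6404 and 46632 CPM. Astrocyte markers did not follow the share within AD-HFD, with 1122 CPM in AD-HFD-4 and 5350 CPM in AD-HFD-2. No marker in these lists was at 0 counts over all libraries. The part of these cell types in the ribosomal protein levels was not tested.

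**Figure D2:**
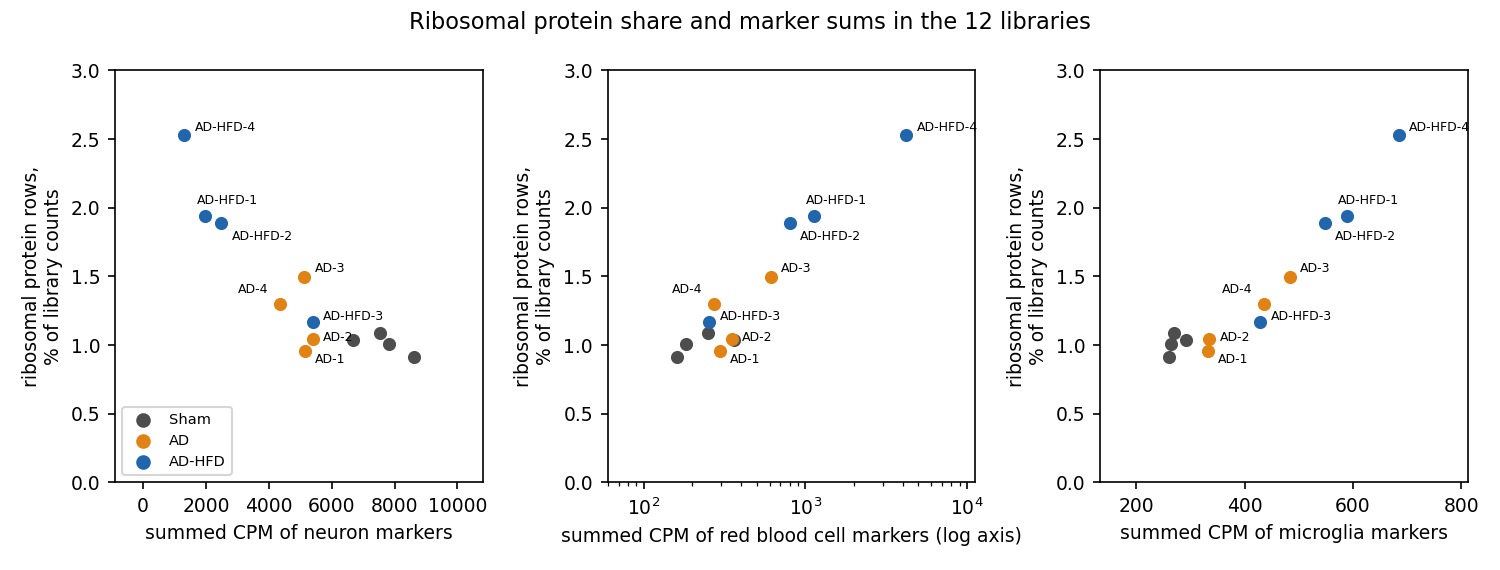
The vertical axis is the percent of library counts on the 80 ribosomal protein rows, and the horizontal axes are the summed CPM of the neuron, red blood cell (log axis) and microglia markers, with 1 point per library. AD-HFD-4, at 2.53%, has the lowest neuron sum and the highest red blood cell and microglia sums, and AD-HFD-3, at 1.17%, has the highest neuron sum and the lowest red blood cell and microglia sums within AD-HFD.

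Against Sham, AD-HFD had 55 of the 80 rows higher and 0 lower at an adjusted p under 0.05 (quasi-likelihood test of edgeR, Benjamini-Hochberg adjustment over all genes tested). Of all genes tested, 19.7% were called higher and 12.9% lower, 32.7% in all. At an unadjusted p under 0.05, 65 rows were higher and 0 lower, against 25.8% and 19.6% of all genes. DESeq2 called 54 rows, all higher, and 25.8% of all genes in either direction. The median log2 fold change of the rows was 0.77, against 0.03 for all genes, and 76 of 80 rows lay above 0. In 28 rows (35%) every AD-HFD library exceeded every Sham library and in 0 every one was below, against 18.9% and 16.2% of all genes. Large subunit rows were called in 33 of 51 cases with a median of 0.74, and small subunit rows in 22 of 29 with a median of 0.87. Among rows with a mean of at least 10 CPM, 53 of 72 were called higher, where 20.8% of all such genes were, and below 10 CPM 2 of 8 were.

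The count rested on the number of libraries and on single ones: it was 23 without Sham-1, 24 without Sham-4, 25 without AD-HFD-4, 28 without Sham-2 and 34 without AD-HFD-2. The share of all genes called in either direction fell in the same fits, from 32.7% to 18.2%, 19.2%, 20.5%, 25.6% and 23.2%. In total, 23 rows were called in all 12 fits that left out 1 library. Without the 4 libraries high in choroid plexus markers the median was 0.84, but no row and no gene at all was called among the 2 Sham and 2 AD-HFD libraries left, where 27 rows had an unadjusted p under 0.05, against 20.4% of all genes.

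**Figure D3:**
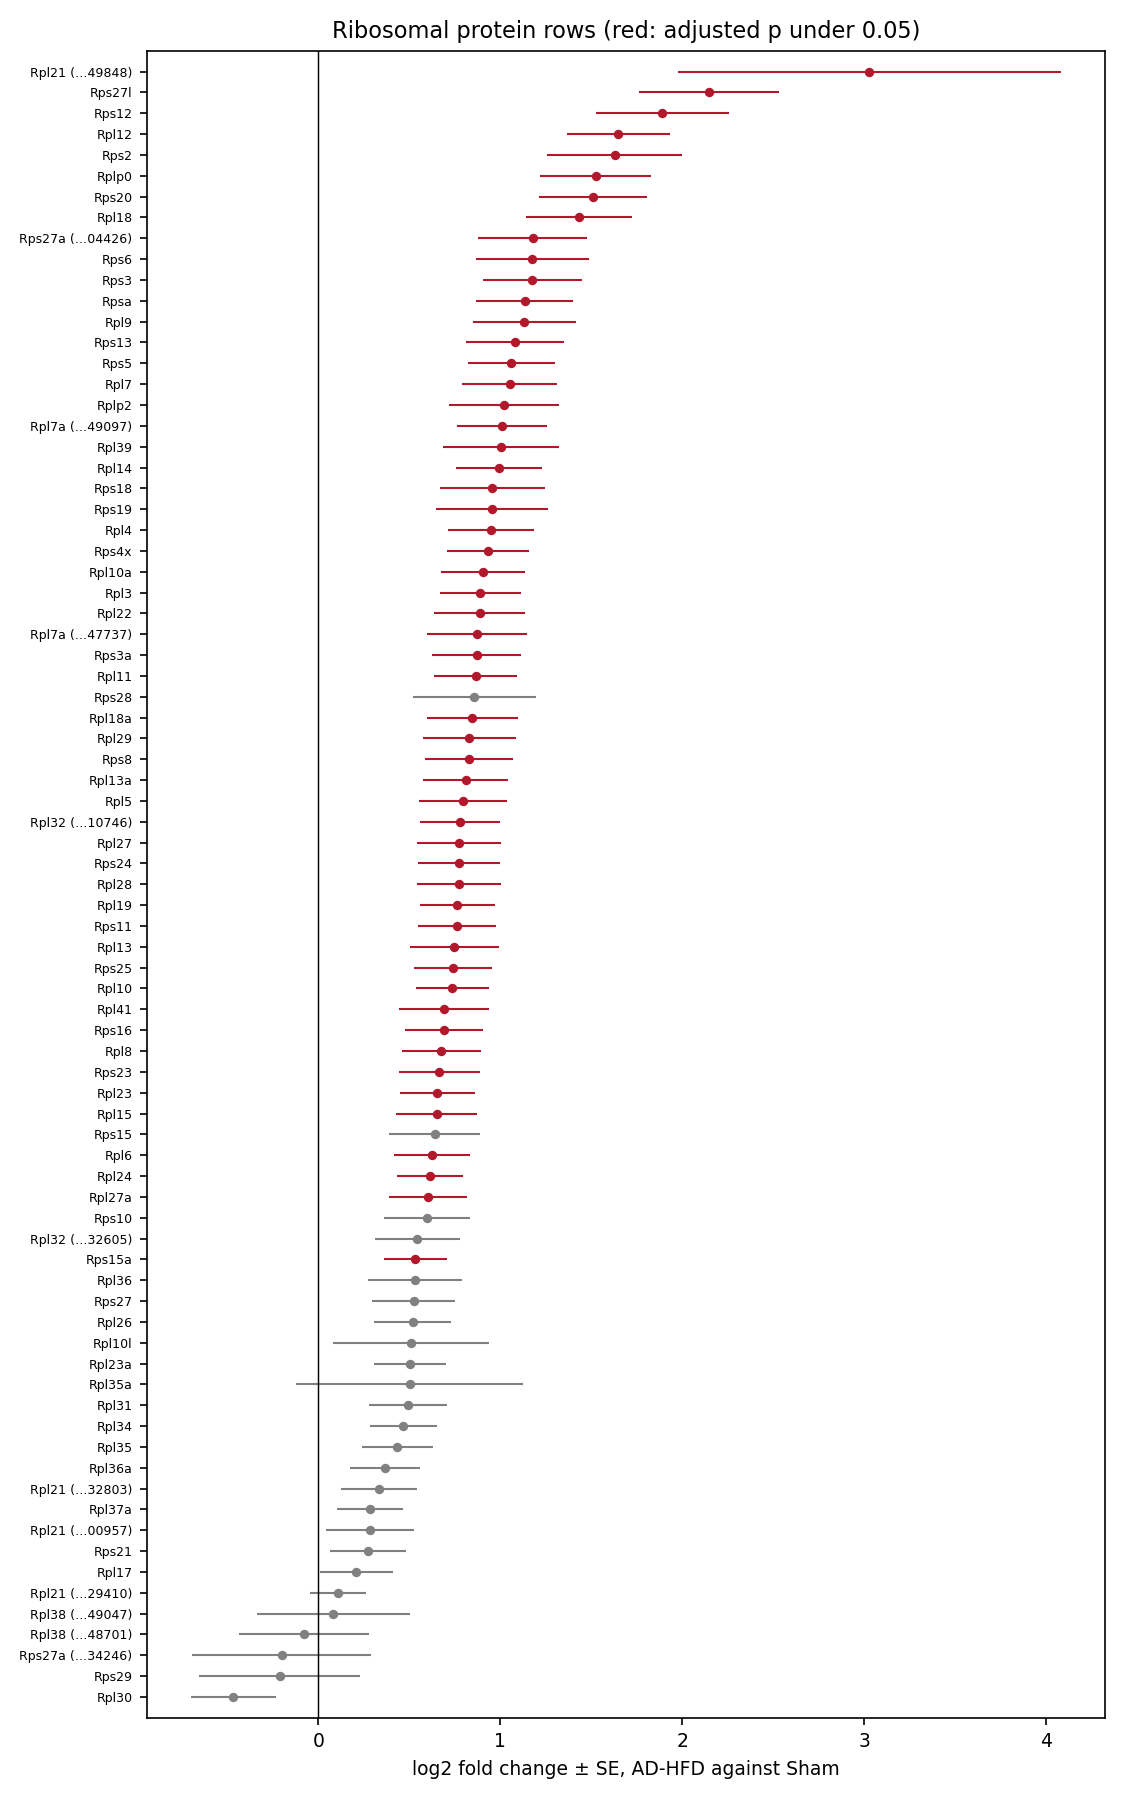
Log2 fold change of AD-HFD against Sham with its SE for the ribosomal protein rows reported by name, ordered by size, with rows at an adjusted p under 0.05 in red. All red rows lie to the right of 0, and Rpl30 is the lowest row at -0.47.

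The smallest p-values of this comparison belonged to Rpl12, Rps27l, Rps12, Rps20, Rplp0 and Rpl18. Levels are not compared between genes, because CPM is not scaled to transcript length. Rpl12, which sits at the base of the P stalk of the large subunit, was at 69.8, 86.0, 81.3 and 75.0 CPM in Sham-1 to Sham-4, at 110, 121, 218 and 177 CPM in AD-1 to AD-4. The values for AD-HFD-1 to AD-HFD-4 were 230, 211, 153 and 384 CPM. Every AD-HFD library was above every Sham library, and so was every AD library, while AD and AD-HFD overlapped. Its mean was 78.0 ± 7.09 CPM in Sham and 245 ± 98.5 CPM in AD-HFD (SD, n = 4), a log2 fold change of 1.65 ± 0.283 (SE; edgeR adjusted p = 0.00333).

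Rplp0, the P stalk protein that anchors the acidic P proteins and that is often used as a reference gene, was at 256, 316, 345 and 321 CPM in Sham, 333, 390, 735 and 443 CPM in AD, and 756, 907, 521 and 1377 CPM in AD-HFD. The 4 AD-HFD libraries were all above Sham, and AD-3 exceeded AD-HFD-3. Its log2 fold change in AD-HFD against Sham was 1.52 ± 0.306 (edgeR adjusted p = 0.00524). Rplp2, an acidic stalk protein that recruits elongation factors, rose by 1.02 ± 0.303 on the log2 scale (edgeR adjusted p = 0.0247). The stalk members were thus called in 3 of 3 cases with a median of 1.52, against 68.75% of all 80 rows and 19.7% of all genes.

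Among the small subunit rows, Rps12 was at 27.3, 23.0, 31.1 and 60.7 CPM in Sham, 55.3, 70.7, 110 and 85.7 CPM in AD, and 126, 119, 74.2 and 207 CPM in AD-HFD. Sham-4 was the highest Sham library and overlapped AD-1, but no Sham library reached the AD-HFD range. The log2 fold change in AD-HFD against Sham was 1.89 ± 0.365 (edgeR adjusted p = 0.00471). Rps20, a protein of the small subunit head, was at 43.6, 48.1, 57.4 and 52.2 CPM in Sham, 57.4, 58.0, 134 and 74.0 CPM in AD, and 138, 131, 93.7 and 210 CPM in AD-HFD. Every AD-HFD library was above every Sham library, while AD-1 reached only the top of the Sham range. The log2 fold change was 1.51 ± 0.298 (edgeR adjusted p = 0.00497).

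Rps27l, a paralogue of Rps27 known as a p53 target, had the largest fold change among rows with a mean of at least 10 CPM. It was at 4.59, 7.32, 7.89 and 5.99 CPM in Sham, 8.63, 5.92, 20.7 and 14.5 CPM in AD, and 33.9, 28.9, 15.6 and 35.8 CPM in AD-HFD. All AD-HFD libraries were above Sham, and AD-3 lay between AD-HFD-3 and AD-HFD-2. The log2 fold change in AD-HFD against Sham was 2.15 ± 0.385 (edgeR adjusted p = 0.00374). Its paralogue Rps27 did not pass the test, at 0.52 ± 0.229 (edgeR adjusted p = 0.0963), and the difference between the paralogues was not tested.

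Rpl18 of the large subunit was at 69.5, 82.0, 88.5 and 87.5 CPM in Sham, 96.2, 99.3, 164 and 128 CPM in AD, and 199, 213, 116 and 357 CPM in AD-HFD. Both AD and AD-HFD were clear of Sham in all 4 libraries. The log2 fold change in AD-HFD against Sham was 1.43 ± 0.291 (edgeR adjusted p = 0.00547).

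**Figure D4:**
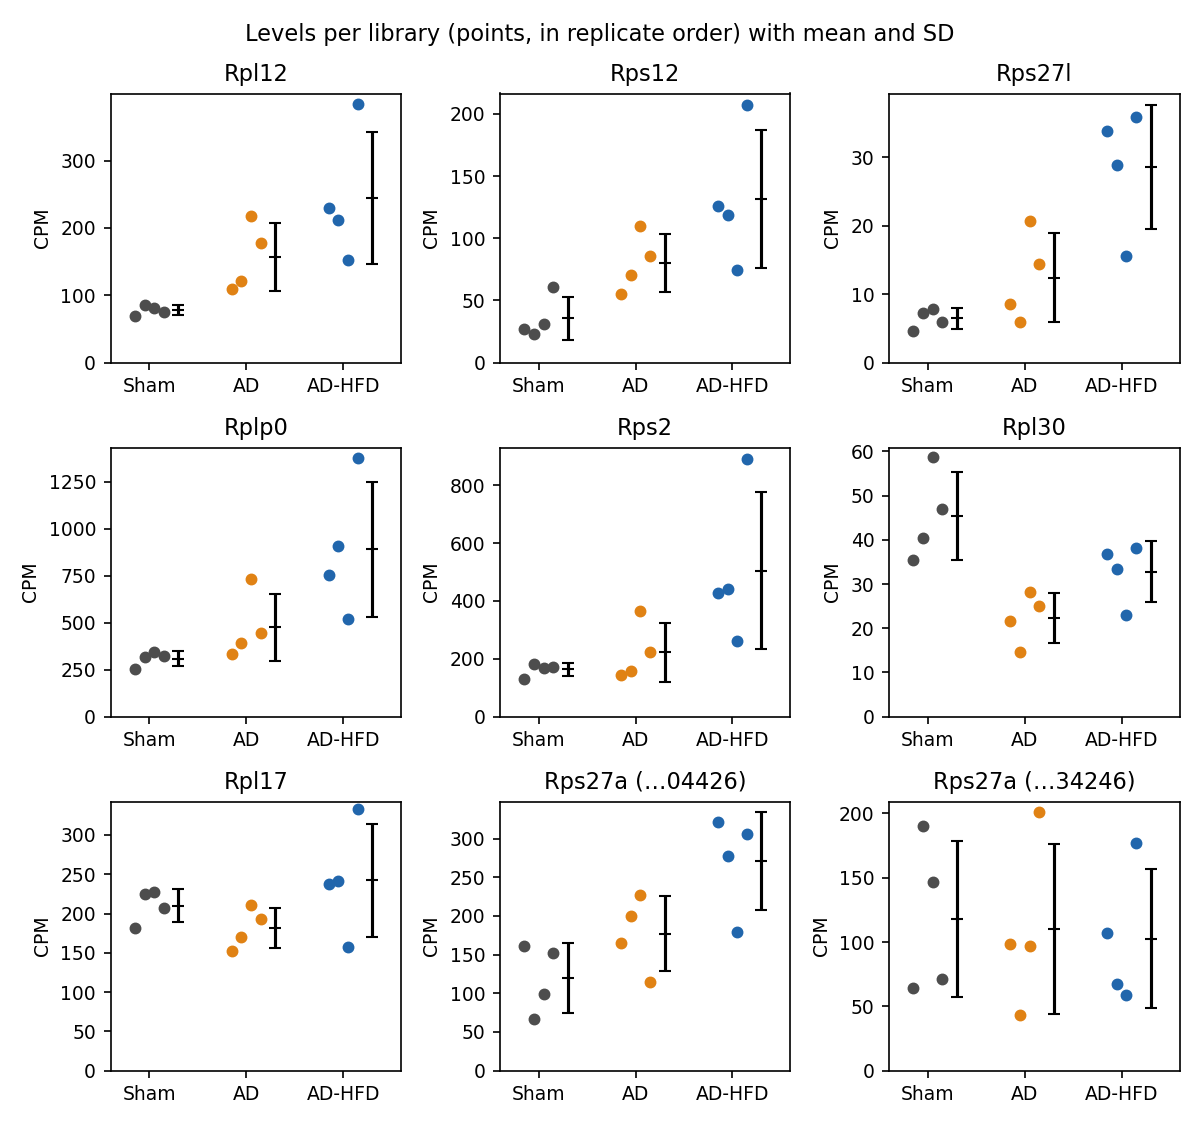
CPM of 9 ribosomal protein rows in each library (points in replicate order) with the group mean and SD (bars, n = 4). Rpl12, Rps12, Rps27l, Rplp0 and Rps2 are higher in AD-HFD, Rpl30 is lower in AD, Rpl17 overlaps in all groups, and the 2 rows of Rps27a take opposite values in the Sham libraries.

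The start of these genes is shown because the TOP stretch is the sequence feature that most ribosomal protein mRNAs share. Of the 73 symbols, 57 matched an entry of the RefSeq promoter table (build GRCr8), and Rps20 and Rpl30 were not among them. Each line gives 40 bases before to 20 bases from the annotated start, on the gene's strand, and capitals mark the longest run of at least 5 pyrimidines within 15 bases on either side of the start.
Rplp0, chr12:46718371-46718430, minus strand: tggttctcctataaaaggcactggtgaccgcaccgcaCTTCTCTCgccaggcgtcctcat
Rpl12, chr3:36661900-36661959, plus strand: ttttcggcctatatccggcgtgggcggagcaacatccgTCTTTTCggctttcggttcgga
Rps3a, chr2:173827023-173827082, minus strand: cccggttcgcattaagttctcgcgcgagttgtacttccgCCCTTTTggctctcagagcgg
Rps2, chr10:14251808-14251867, plus strand: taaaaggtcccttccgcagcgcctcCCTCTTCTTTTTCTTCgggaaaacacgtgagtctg
Rpl18, chr1:105325230-105325289, plus strand: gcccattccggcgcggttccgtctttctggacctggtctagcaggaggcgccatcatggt
Rps12, chr1:23500035-23500094, plus strand: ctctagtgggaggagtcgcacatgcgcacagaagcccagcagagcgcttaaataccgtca
Rps27l, chr8:76443618-76443677, plus strand: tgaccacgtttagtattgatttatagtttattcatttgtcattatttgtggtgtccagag

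Rplp0 and Rps3a have C followed by at least 4 pyrimidines exactly at the annotated start, and Rpl12 and Rps2 have a pyrimidine run across or just before it. The Rpl18, Rps12 and Rps27l windows hold no run of 5 within those 15 bases. In Rpl18 a longer run crosses the far edge of that window, and in Rps2 the marked run also continues past that edge. Over the 57 matched symbols, C and 4 pyrimidines (C or T), searched on the gene's strand at the annotated start, were found in 19 (33.3%), against 3.11% of 27457 genes. A run of at least 8 pyrimidines within 15 bases of the start was found in 36 (63.2%), against 12.7% of all genes; the pair of patterns can overlap. Rows with the run of 8 were called higher in AD-HFD against Sham in 25 of 41 cases, with a median log2 fold change of 0.75. Matched rows without it were called higher in 18 of 22, with a median of 0.91. Of all 80 rows 68.75% were called higher, and of all genes 19.7%. Rows sharing a symbol were given the same start. Among those with the run, Rpl21 stood on 4 rows and Rpl38 on 2, and neither symbol was called when summed. The difference between these sets of rows was not tested. A match is a description of the annotated start, and annotated starts can lie some bases from the start used in this tissue.

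By role, Rpl5 and Rpl11, which with 5S rRNA form the particle that can bind Mdm2, were both called, at log2 fold changes of 0.79 ± 0.24 and 0.86 ± 0.227 in AD-HFD against Sham (edgeR adjusted p = 0.0267 and 0.0153). Of all 80 rows 68.75% rose and of all genes 19.7%, and around the peptide exit tunnel 4 of 9 rows rose, with a median of 0.52. They were Rpl4, which lines the tunnel (0.95 ± 0.234), Rpl39 (1.01 ± 0.319), Rpl22 (0.89 ± 0.249) and Rpl19 (0.76 ± 0.205). Rpl17, a tunnel protein, stayed at 210 ± 21.1 CPM in Sham, 182 ± 25.4 CPM in AD and 242 ± 72.1 CPM in AD-HFD (SD, n = 4), with a log2 difference of 0.21 ± 0.201 between AD-HFD and Sham (edgeR adjusted p = 0.441).

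At the mRNA entry and decoding side of the small subunit, 3 of 4 rows rose with a median of 0.92. Of all 80 rows 68.75% rose, and of all genes 19.7%. Rps2, which lies at the entry channel, was at 132, 183, 167 and 171 CPM in Sham, 144, 157, 363 and 223 CPM in AD, and 426, 442, 260 and 892 CPM in AD-HFD. AD-1 and AD-2 lay within the Sham range, and AD-3 was above AD-HFD-3. Its log2 fold change in AD-HFD against Sham was 1.63 ± 0.37 (edgeR adjusted p = 0.00864). Rps3, which also has a role in DNA repair, rose by 1.17 ± 0.271, Rps23 rose by 0.67 ± 0.224, and Rps15 was at 0.64 ± 0.25 (edgeR adjusted p = 0.00911, 0.0402 and 0.0675).

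Rps6, the substrate of the S6 kinases downstream of mTOR, was at 111, 105, 81.5 and 112 CPM in Sham, 125, 97.0, 164 and 136 CPM in AD, and 269, 202, 99.5 and 352 CPM in AD-HFD. AD-HFD-3 fell inside the Sham range, so the groups overlapped. The log2 fold change in AD-HFD against Sham was 1.18 ± 0.31 (edgeR adjusted p = 0.0156). Rpsa, the laminin receptor precursor that is also a small subunit protein, rose by 1.13 ± 0.267 (edgeR adjusted p = 0.00991).

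A short list of genes mutated in Diamond-Blackfan anaemia, an inherited failure of red cell production, was also read, and other member rows belong to disease genes not on it. Of the 7 listed genes with a member row, 5 rose with a median of 0.79. Among them, besides Rpl5 and Rpl11, were Rps19 (0.95 ± 0.308) and Rps24 (0.77 ± 0.225), while Rps10 was at 0.60 ± 0.236 and Rpl35a at 0.50 ± 0.625 (edgeR adjusted p = 0.0704 and 0.557). Among paralogues and their partners, 5 of 8 rose with a median of 0.81. This count and that of the anaemia genes lie near the 68.75% of all 80 rows called higher, where 19.7% of all genes were. Rpl3 (0.89 ± 0.222) and Rpl10 (0.74 ± 0.203), the widely expressed forms, were called. The calls of Rplp2, Rpl5, Rpl39, Rpl22, Rps23, Rps19 and Rps24 were each lost without Sham-1, without Sham-4 and without AD-HFD-4, and in all but Rpl22 without further libraries. Rpl10l, best known from testis, was at 0.51 ± 0.427 (edgeR adjusted p = 0.371).

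Few rows differed between AD and Sham. Of the 80 rows, 0 were higher and 1, Rpl30, was lower in the edgeR test, against 3.07% higher and 3.16% lower among all genes, 6.23% in all. Of the 72 rows with a mean of at least 10 CPM 0 were called higher, against 2.68% of such genes. At an unadjusted p under 0.05, 4 rows were higher and 1 lower, against 13.3% and 10.7% of all genes. DESeq2 called Rpl12 and Rps12 higher and Rpl30 lower, and 9.35% of all genes in either direction. The median log2 fold change was 0.23, against 0.06 for all genes, and 71 rows lay above 0. In 2 rows, Rpl12 and Rpl18, all AD libraries exceeded all Sham libraries, and in 1, Rpl30, all were below (10.3% and 11.3% of all genes). With AD-3 as the only AD library the median was 0.52.

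Rpl30, a large subunit protein that also binds selenocysteine insertion elements, was the row called lower. It was at 35.5, 40.3, 58.7 and 47.0 CPM in Sham, 21.6, 14.6, 28.1 and 24.9 CPM in AD, and 36.8, 33.4, 22.9 and 38.1 CPM in AD-HFD. Every AD library was below every Sham library, and AD-HFD overlapped both groups. The mean fell from 45.4 ± 10.1 to 22.3 ± 5.76 CPM (SD, n = 4), a log2 fold change of -1.02 ± 0.236 (edgeR adjusted p = 0.0283). The call was lost when any Sham library other than Sham-2 or any AD library other than AD-3 was left out, and over the alternatives the log2 fold change ran from -1.16 to -0.70 and the adjusted p from 0.00164 to 0.293. AD-HFD against Sham gave -0.47 ± 0.233 (edgeR adjusted p = 0.138).

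The rows with the smallest p among those higher in AD were Rpl12, at a log2 fold change of 1.01 ± 0.279, and Rps12, at 1.18 ± 0.359 (edgeR adjusted p = 0.0537 and 0.0722). Over the alternatives the adjusted p of Rpl12 ran from 0.0121 to 0.339 and that of Rps12 from 0.0230 to 0.494.

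Between AD-HFD and AD, where diet is the labelled difference, 0 of 80 rows were called in the edgeR test, against 0.0106% of all genes (0.00943% at a mean of at least 10 CPM). At an unadjusted p under 0.05, 51 rows were higher and 0 lower, against 17.1% and 13.4% of all genes. DESeq2 called 8 of the 80 rows, all higher, and 11.2% of all genes in either direction. The median log2 fold change was 0.56, against 0.04 for all genes, and 76 rows lay above 0. In 1 row, a row of Rpl7a (ENSRNOG00000049097), every AD-HFD library exceeded every AD library, and in 0 every one was below (2.72% and 2.74% of all genes). The rows with the smallest p were Rps3a at 0.80 ± 0.244, Rps3 at 0.89 ± 0.269 and Rps2 at 1.19 ± 0.366 (edgeR adjusted p = 0.0707, 0.0707 and 0.0723).

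AD-3 and AD-HFD-3 decided this count. Without AD-3, 40 rows and 5841 of all genes were called, and without AD-HFD-3, 60 rows and 5321 genes, whereas leaving out any of the other 10 libraries gave 0 rows. Without AD-HFD-4 the median fell to 0.35. Rps3a, a small subunit protein, was at 271, 335, 283 and 288 CPM in Sham, 258, 267, 398 and 308 CPM in AD, and 616, 458, 314 and 763 CPM in AD-HFD. AD-3 was the highest AD library and AD-HFD-3 the lowest AD-HFD library, and they were the pair that overlapped. AD-HFD against AD shares the AD libraries with AD against Sham, and AD-HFD against Sham shares groups with both, so the values of the comparisons are not independent. For Rps3a they were 0.07 in AD against Sham, 0.80 in AD-HFD against AD and 0.87 in AD-HFD against Sham.

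Across the 12 libraries, the log2 CPM of a row followed the mean of the other rows closely, with a median Pearson r of 0.952, 58 rows above 0.9 and 7 below 0.5 (a description over libraries that share group, tissue makeup and scaling). Rpl10a, at 0.993, Rpl11, at 0.988, and the better counted row of Rpl32 (ENSRNOG00000010746), at 0.987, followed it most closely. The lowest values were those of the 2 rows of Rpl38, at -0.135 and -0.023, and of Rpl35a and the low row of Rpl21, both at 0.019. These 4 rows had group means of at most 3.87 CPM. Rpl30, at 0.151, was in contrast well counted.

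Reads of ribosomal protein genes can be shared with near-identical copies, and 5 symbols stood on 12 rows. The 2 rows of Rps27a, which codes for ubiquitin fused to a small subunit protein, went opposite ways in Sham and in AD-4. The row ENSRNOG00000004426 was at 161, 66.6, 98.9 and 153 CPM in Sham, 165, 200, 227 and 115 CPM in AD, and 321, 278, 180 and 306 CPM in AD-HFD. The row ENSRNOG00000034246 was at 64.1, 190, 146 and 71.5 CPM in Sham, 98.4, 43.1, 97.0 and 201 CPM in AD, and 107, 67.5, 59.2 and 177 CPM in AD-HFD. Sham-2 and Sham-3 were low in the first row and high in the second, and AD-4 likewise, whereas AD-HFD-3 was the lowest AD-HFD library in both.

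Summed, Rps27a was steadier than either row within Sham, at 225, 257, 245 and 224 CPM in Sham, 264, 243, 325 and 316 CPM in AD, and 428, 345, 239 and 483 CPM in AD-HFD, where the sum still varied widely. The first row alone was called in AD-HFD against Sham at a log2 fold change of 1.18 ± 0.3, the second was at -0.20 ± 0.492, and the sum was at 0.65 ± 0.198 (edgeR adjusted p = 0.0137, 0.776 and 0.0269). How reads were divided between the rows is uncertain.

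Summing the rows of the other repeated symbols gave log2 fold changes of 0.95 ± 0.24 for Rpl7a, 0.77 ± 0.22 for Rpl32, 0.28 ± 0.165 for Rpl21 and -0.01 ± 0.368 for Rpl38 (edgeR adjusted p = 0.0134, 0.0216, 0.199 and 0.986). The row of Rpl21 with the fewest counts (ENSRNOG00000049848) was called at 3.03 ± 1.05, the largest fold change of all rows (edgeR adjusted p = 0.0453). It was between 0.068 and 1.55 CPM in 11 libraries and at 12.6 CPM in AD-HFD-3, and without that library it was at 0.99 (edgeR adjusted p = 0.292). With the repeated symbols summed, 53 of 73 symbols were called higher, and 32.7% of all genes were called in either direction.

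Other genes of protein synthesis were read from lists drawn up with earlier results of these data known. Their counts in AD-HFD against Sham are read beside the 19.7% of all genes called higher and 12.9% called lower. Of 6 ribosomal protein genes outside the rule, 2 rose in AD-HFD against Sham with a list median of 0.47. Rack1, a scaffold on the small subunit head, rose by 0.98 ± 0.237, and Rpl7l1 rose by 0.78 ± 0.193 (edgeR adjusted p = 0.0112 and 0.0119). Fau, a ubiquitin-like fusion gene, did not pass, at -0.69 ± 0.549 (edgeR adjusted p = 0.345).

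Of 12 elongation factors and other TOP-class genes, 8 rose and 1 fell, with a median of 0.77. Pabpc1, the poly(A)-binding protein, rose by 1.54 ± 0.37, Npm1, a nucleolar chaperone, by 1.35 ± 0.266, Tpt1 by 0.94 ± 0.241 and Eef1b2 by 0.89 ± 0.187 (edgeR adjusted p = 0.0107, 0.005, 0.0138 and 0.00642). Eef1a2, the elongation factor form of mature neurons and muscle, fell by 1.10 ± 0.364 on the log2 scale (edgeR adjusted p = 0.0378), and Eef1a1, its widely expressed paralogue, was at 0.65 ± 0.255 (edgeR adjusted p = 0.0665). Eef1a2 was at 266, 477, 934 and 231 CPM in AD-HFD-1 to AD-HFD-4, so AD-HFD-3, where neuron markers were highest within that group, was also highest for Eef1a2.

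Of 30 initiation factors, 16 rose and 0 fell, with a median of 0.51 (at an unadjusted p under 0.05, 18 were higher and 2 lower). Eif3j rose by 1.05 ± 0.184, and Eif4a1, the helicase of the cap complex, by 1.13 ± 0.31 (edgeR adjusted p = 0.00354 and 0.0182). Of 26 ribosome biogenesis factors, 13 rose and 0 fell, with a median of 0.65 (unadjusted, 17 higher and 1 lower). Among them were the box C/D proteins Nop58 (1.68 ± 0.351) and Fbl (1.36 ± 0.403), the helicase Ddx21 (1.77 ± 0.416) and the nucleolar GTPase Gnl3 (1.15 ± 0.231).

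Of 19 regulators of translation, 6 rose and 0 fell, with a median of 0.28 (unadjusted, 7 higher and 3 lower). Myc was at 2.72, 3.0, 2.42 and 3.18 CPM in Sham, 3.53, 5.11, 67.0 and 22.3 CPM in AD, and 52.4, 57.5, 39.9 and 88.5 CPM in AD-HFD. AD-3 and AD-4 were high within AD, as for most ribosomal protein rows. Myc was higher in AD-HFD-3 than in AD-4, while the ribosomal protein share was 1.17% in AD-HFD-3 and 1.30% in AD-4. Any part of Myc in the ribosomal protein levels was not tested. Myc rose by 3.11 ± 0.77 in AD and by 4.39 ± 0.805 in AD-HFD, both against Sham (edgeR adjusted p = 0.0367 and 0.00397). Eif4ebp1, a repressor of cap-dependent initiation, rose by 2.33 ± 0.547 in AD-HFD, and Mtor was at -0.44 ± 0.195 (edgeR adjusted p = 0.00982 and 0.1).

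Mitochondrial ribosomal protein genes, which serve translation inside mitochondria, had 2 of 75 higher and 7 lower with a median of -0.09, both shares below those of all genes. Mrps25 fell by 0.62 ± 0.134, and Mrps6 rose by 0.85 ± 0.269 (edgeR adjusted p = 0.0068 and 0.0314). In AD against Sham none of these lists had a called gene except Myc, and in AD-HFD against AD none had one; the initiation factors, for example, had 2 and 11 genes higher at an unadjusted p under 0.05.

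**Figure D5:**
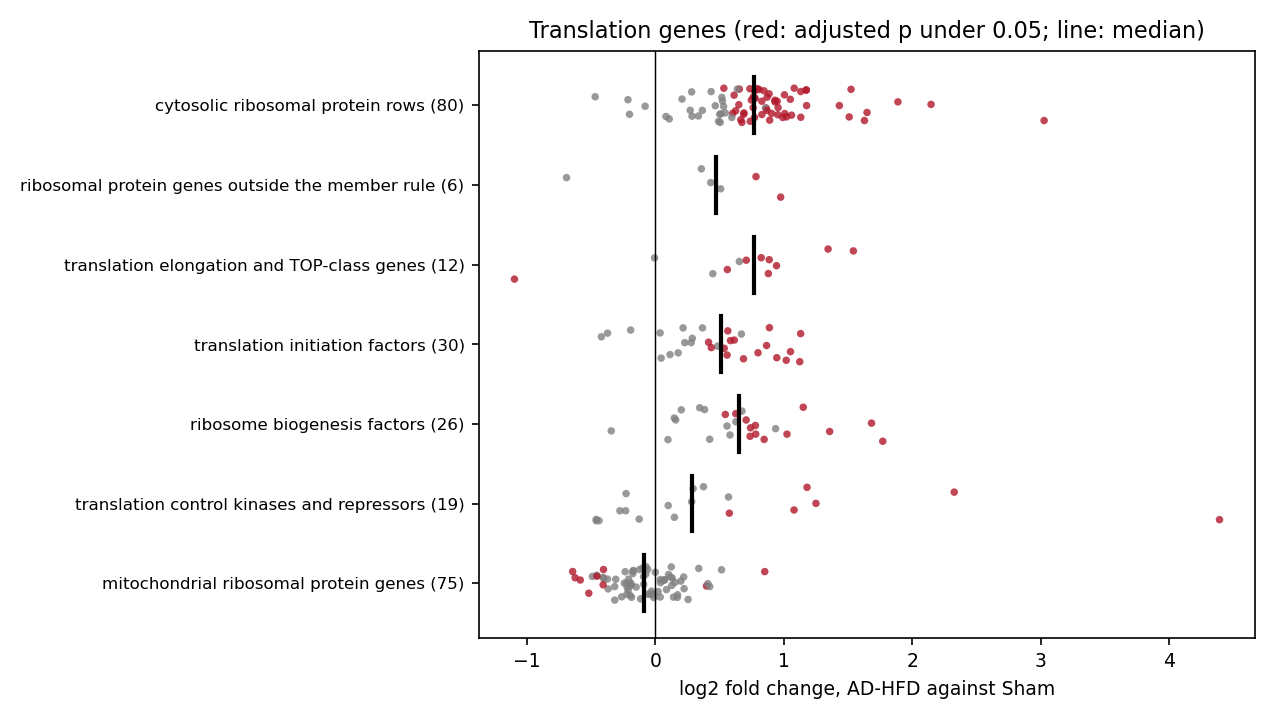
Log2 fold change of AD-HFD against Sham for each gene of 7 lists (number tested in brackets), with genes at an adjusted p under 0.05 in red and the list median as a black line. The cytosolic ribosomal protein rows have a median of 0.77, and the mitochondrial ribosomal protein genes one of -0.09.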

How the data were processed

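The authors deposited 1 table of raw read counts per gene with symbols (31177 rows, of which 9127 are unnamed new loci) for 12 libraries. Per the labels' protocols, RNA was isolated with TRIzol and prepared with a Yeasen mRNA kit. FastQC and Trimmomatic appear in the submitters' processing notes; for the aligner, counting program, strand setting, build and annotation, nothing was given in the sources used here. Genes were filtered with filterByExpr, scaled by TMM and fitted by the non-legacy quasi-likelihood method of edgeR 4.0.16 (R 4.3.3), with 1 mean per group over all 12 libraries. A call is an adjusted p (Benjamini-Hochberg) under 0.05, and the SE is the log2 fold change divided by the square root of F. The fit was tested on simulated counts. CPM use TMM-scaled totals. Alternatives were DESeq2 1.42.0, other scalings, no filter, a replicate block, a fit on the groups compared and leaving out libraries; those that left out several libraries, summed rows or used the legacy method were chosen after seeing the data. The members, role groups and lists were chosen with earlier results of these data known. Members were named by smallest p per comparison, role group, closeness to the count limit, level and correlation with the other members; Rpl10 in Sham, Fau and Rpl22l1 were named after their values were seen. Some members are not reported by name here. Promoter sequences are from RefSeq, build GRCr8.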

Additional observations from a re-analysis of the deposited data

Results flagged for a closer look

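Rpl10 was at 250 CPM in Sham-1, against a narrow range in the other 3 Sham libraries. The gap to the nearest of them, as a part of the group's whole range, was just past the 95% limit of Dixon's test for 4 libraries. It was the only value past that limit among 123 groups of 4 examined, where chance gives about 1 in 20.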

How the results depend on the processing

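In AD-HFD against Sham, 55 rows were called, and leaving out 1 library gave 23 to 65 rows and a median of 0.55 to 0.93. Other scalings, no filter, DESeq2, the legacy method and the groups compared alone gave 51 to 59. Without the 4 libraries high in choroid plexus markers (Sham-2, Sham-3, AD-HFD-1 and AD-HFD-2) it was 0, with 0 of all genes called in place of 6162; leaving out 1 library gave 3514 to 8615 of all genes. For AD against Sham, 1 row was called. It was 2 with RLE factors, with library totals alone and with the replicate block, and 3 on the groups compared alone, with DESeq2, with AD-3 as the only AD library (median 0.52 in place of 0.23; that lone library is assumed to vary like the other groups) and with AD-HFD-3 and AD-HFD-4 left out. It was 0 without the choroid plexus libraries, and 0 to 3 when 1 library was left out. All genes called there numbered 1174, with 302 to 2329 when 1 library was left out, 2363 on the groups compared, 2583 with DESeq2, 2801 with AD-HFD-3 and AD-HFD-4 left out and 4 without the choroid plexus libraries. For AD-HFD against AD the count of 0 became 8 with DESeq2, 7 with AD-HFD-3 and AD-HFD-4 left out and 0 to 60 when 1 library was left out. Of all genes, 3082, 1896 and 0 to 5841 were called there, in place of 2, and the median ran from 0.35 to 0.72 when 1 library was left out. The cause of these changes was not tested.

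The replicate number as a block gave 41 rows in AD-HFD against Sham, all among the 55, 2 for AD against Sham and 0 between AD-HFD and AD. Of all genes, that fit called 27.4%, 4.51% and 0.0265% in these comparisons, in place of 32.7%, 6.23% and 0.0106%. The numbers did not pair the libraries: deviations of same-numbered libraries correlated at -0.317 to 0.0947 over 12 pairs. The Sham share of 1.01% became 1.14% with mitochondrially encoded genes out of the total and 0.846% without the 5 most counted rows. Of values for named genes, 1041 kept direction and call, 42 gained a call, 79 lost one and 9 changed sign. For the Rps27a row ENSRNOG00000034246, AD-HFD against AD ran from -0.50 to 0.37 when 1 library was left out, above 0 without AD-4, without AD-HFD-2 (0.021) and without AD-HFD-3 (0.090). It was 0.074 with AD-3 as the only AD library and 0.11 without the choroid plexus libraries. Against Sham its AD-HFD value ran from -0.60 to 0.061, and was 0.78 without the choroid plexus libraries. Rps29 ran from -0.59 to 0.0062, the latter without Sham-4, and Rpl35a was at -0.29 with AD-HFD-3 and AD-HFD-4 left out. Rows of a few CPM, such as Rps29 and Rpl38, are limited by depth.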

Other observations

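Fau, which codes for a ubiquitin-like protein fused to a small subunit protein and lies outside the symbol rule, varied widely within Sham, at 5.61, 39.7, 19.5 and 56.8 CPM. It was at 12.3, 27.9, 15.1 and 14.6 CPM in AD and at 14.5, 20.9, 11.3 and 28.6 CPM in AD-HFD, so its groups overlapped. Rpl22l1, the paralogue of Rpl22, was highest in AD-HFD-1, at 78.7 CPM, and was at 40.8, 42.1 and 49.1 CPM in the other AD-HFD libraries.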
